A study of Mus musculus with 8 samples.

Results

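The DNA replication and nucleotide supply genes are 37 genes of the mouse count table, chosen by gene symbol from 27036 genes in all, and each of the 37 passed the filter on low counts that left 14034 genes for testing. The list and its division into 7 roles were drawn up from known functions, with earlier results of these data in view. RNA was measured in 3 normal prostates (WT), 3 prostates with prostatic intraepithelial neoplasia (PIN) and 2 prostate adenocarcinomas (PCa). A different animal behind each library was assumed. PIN and PCa tissues came from mice of the genotype R26 mTmG/hAR:Osr1 Cre/+, in which Cre driven by the Osr1 locus switches on a human androgen receptor transgene. Per the paper, these tissues were checked by microscopy and consisted mostly of atypical or tumor cells, while WT was normal prostate tissue. The paper describes the WT mice as matched in sex and age. They were R26 mTmG/+:Osr1 Cre/+ and lacked that transgene, so that the mTmG reporter and the Osr1 Cre allele were present in all 3 groups. The ages of these animals are not given in the labels, and the mice were of mixed C57BL/6 and 129S1/SvImJ background. In the paper, PIN lesions began at a younger age than PCa. Should age differ between the groups, its effect and that of the lesion cannot be told apart here. Because Osr1 is active early in the urogenital sinus, the transgene can be switched on in more than a single cell type of the prostate. The transgene itself was not analysed here.

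Before a cell copies its DNA, the origin recognition complex, Cdc6 and Cdt1 load the ring of Mcm2 to Mcm7 onto origins, a step called licensing that geminin (Gmnn) restrains. The loaded ring becomes an active helicase with the GINS complex and Mcm10. Primase and polymerase alpha then start each strand, polymerases delta and epsilon extend it, replication factor C (RFC) loads the sliding clamp PCNA, replication protein A (RPA) covers single-stranded DNA, and Fen1 and Lig1 finish the lagging strand. Deoxynucleotides come from ribonucleotide reductase (Rrm1, Rrm2), thymidylate synthase (Tyms) and thymidine kinase (Tk1). Most of these genes are transcribed in cells that enter S phase, many through E2F factors, and the adult prostate epithelium divides slowly.

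The promoters of several members hold sequence words that are known to be bound by E2F factors or, for CCAAT, by NF-Y. RefSeq promoter windows of 300 bases, from 250 before to 50 after the annotated start site on GRCm38.p6, were given for 29 of the 37 members. Windows for Gmnn, Gins1, Gins2, Gins4, Rfc2, Mcm4, Prim2 and Pole were not used here. The E2F words searched on both strands were TTTCCCGC, TTTGGCGC, TTTCGCGC and TTTGCCGC. Of the 29 members, 13 held at least 1 of them, or 44.8%, against 4.56% of 9848 tested genes with a window and 2.6% of all 27025 genes with a window. CCAAT, also on both strands, was in the windows of 18 of 29 members, or 62.1%, against 42.5% of tested genes. In 7 of the 13 members an E2F word lay upstream of the start site, and in the other 6 it lay only downstream. The 5 upstream stretches that follow are shown because they overlap no annotated gene (GENCODE vM1), and because Mcm5, Mcm6, Pola1 and Rrm2 rose in PCa while Gins3 did not pass. They are printed 5′ to 3′ on the gene's strand, with mm9 coordinates from an exact match of the window, and the capitals mark E2F words, which overlap each other in Mcm5, or in Rrm2 the CCAAT word.
Mcm5 (chr8:77633234-77633291, + strand): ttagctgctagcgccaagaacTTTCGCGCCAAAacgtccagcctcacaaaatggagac
Mcm6 (chr1:130256297-130256354, - strand): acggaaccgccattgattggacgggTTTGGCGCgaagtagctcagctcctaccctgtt
Gins3 (chr8:98157393-98157450, + strand): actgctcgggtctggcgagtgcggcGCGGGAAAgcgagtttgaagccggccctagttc
Pola1 (chrX:90877600-90877657, - strand): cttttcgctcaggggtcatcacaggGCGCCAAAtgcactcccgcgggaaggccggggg
Rrm2 (chr12:25393044-25393098, + strand): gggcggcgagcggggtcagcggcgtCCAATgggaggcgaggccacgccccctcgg
In Mcm5 these bases run from 174 to 117 before the start site, in Mcm6 from 72 to 15, in Gins3 from 66 to 9, in Pola1 from 163 to 106 and in Rrm2 from 75 to 21. A match of letters is a description of the window and not a site shown to be bound.

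**Figure D1:**
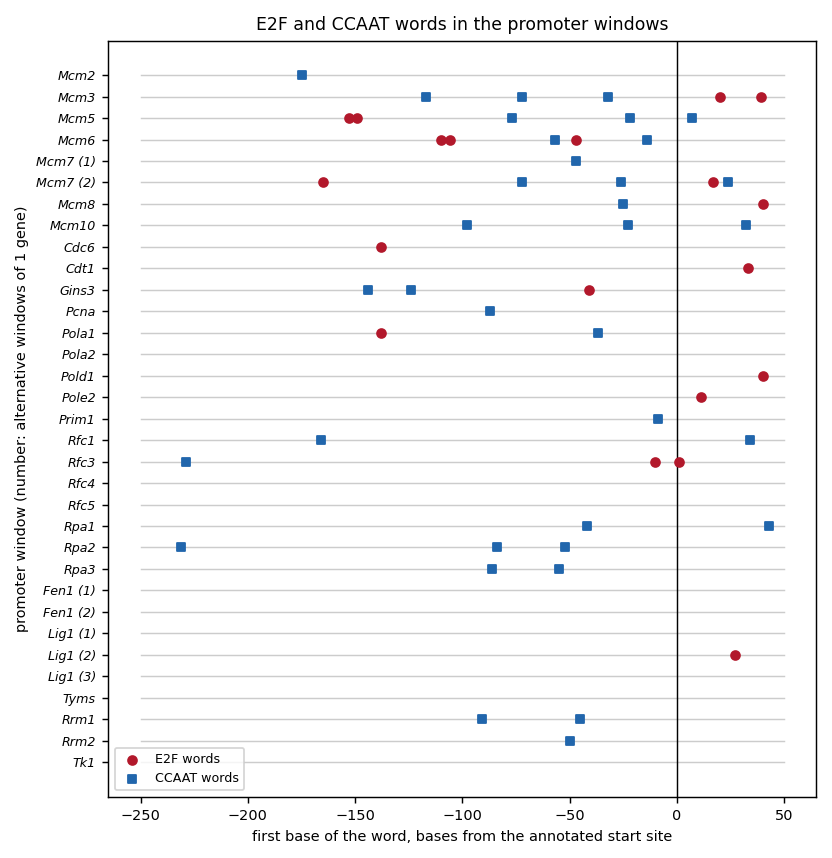
Positions of E2F words (circles) and CCAAT words (squares) in the 33 promoter windows of 29 members, in bases from the annotated start site. E2F words occur in 13 of the 29 members, Mcm3, Mcm5 and Mcm6 among them, and CCAAT words in 18.

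Total counts on genes ran from 21751803 to 29730420 per library. Levels are given as CPM, counts divided by library sizes that edgeR adjusted by a trimmed mean of log ratios (TMM) and scaled to a common depth, and a gene was called when its log2 fold change was above 1 or below -1 with a Benjamini-Hochberg adjusted p under 0.05 over all 14034 genes in edgeR's quasi-likelihood test. In WT and PIN a single secretory gene, 9530053A07Rik, took 13.1% to 22.1% of all counts, and in PCa the most abundant gene took 1.06% and 1.43%. With no normalization factor, the median gene lay 0.56 higher on the log2 scale in PCa than in WT, and 0.01 higher with TMM. The library numbers in the labels fall into 3 series, with WT 1 alone, WT 2 and WT 3 together, and all PIN and PCa libraries together. Should these be batches, a batch effect and a difference from WT cannot be told apart here. The p-values measure the spread between these libraries, of which only 2 are PCa.

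Most replication genes had higher levels in both adenocarcinomas, and 20 passed the test. Of the 37 members, 37 had a higher mean in PCa than in WT, 20 were called higher, against 4.35% of all genes tested, and 0 were called lower, against 4.18%. The members' median log2 fold change was 1.63, from 0.06 for Rfc1 to 2.85 for Mcm10, and the median over all genes tested was 0.01. In 35 of 37 members both PCa libraries lay above every WT library, which held for 17.7% of all genes tested. Summed over the 37 genes, the level was 415.6, 405.2 and 552.3 CPM in WT 1, 2 and 3, then 517.4, 532 and 565.6 CPM in PIN 1, 2 and 3, and 1030 and 1236 CPM in PCa 1 and 2. In bulk tissue, more cells that express a gene and more RNA per cell cannot be told apart.

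Of the 17 members that were not called, 8 had a log2 fold change above 1 with an adjusted p of 0.05 or more, and 9 had a log2 fold change of 1 or less. The calls depended on the controls and on the number of libraries. Without WT 1, 8 members and 2.22% of all genes were called higher. Without WT 3 these were 10 members and 1.03%. Without PIN 3, which is in neither group compared but shares the fit and the filter, they were 9 members and 1.54%. Without WT 2 they were 16 members and 2.99%, and without PCa 1, 19 members and 7.49%. When PCa and WT alone were fitted, 1 member was called, Rrm2, and 0.491% of all genes tested were called higher. Lig1, Mcm4, Mcm5, Mcm6, Mcm7, Rfc4, Rrm2 and Tyms were called whichever single library was left out. The fits without PCa 1 or PCa 2 hold 1 PCa library, which is assumed to vary as the WT and PIN libraries do.

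**Figure D2:**
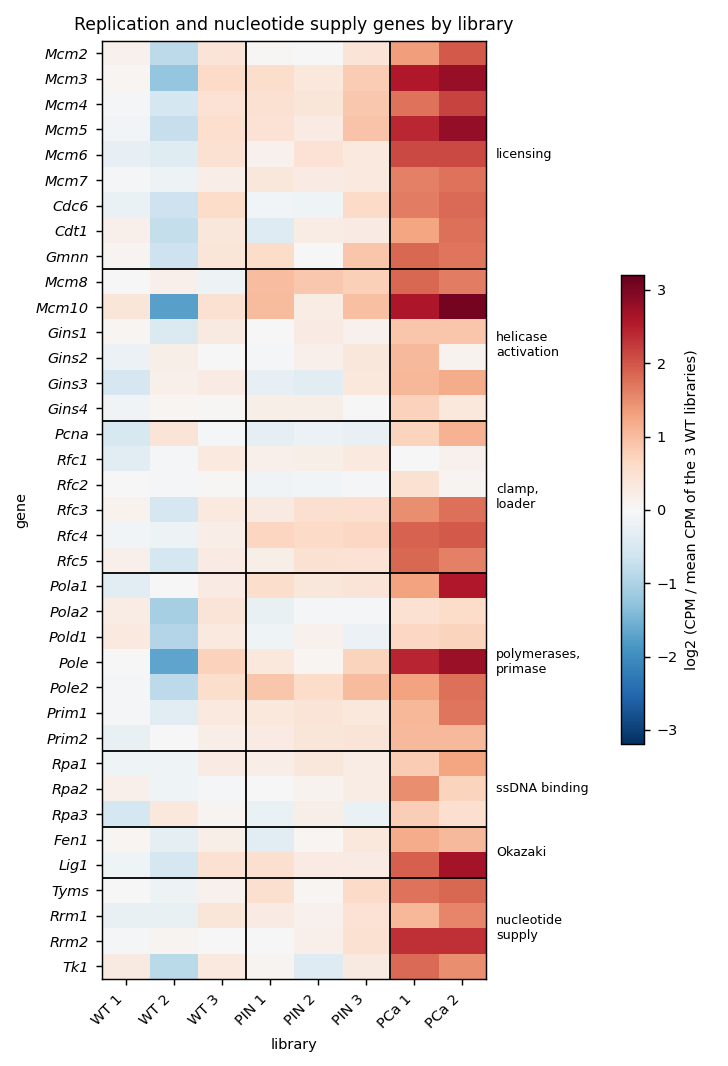
Heat map of the 37 members (rows, grouped by role) in the 8 libraries (columns), coloured by the log2 ratio of the CPM to the mean of the 3 WT libraries. Both PCa columns are red for 35 members whose levels lie above every WT and PIN library, against 13.4% of all genes tested. Rfc1 and Gins2 are the exceptions, and WT 2 is the lowest WT library for 25 members.

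Markers of some cell types differed as well, and outside the epithelium only smooth muscle had called markers. The 5 smooth muscle markers (Acta2, Myh11, Cnn1, Des, Tagln) were all called lower in PCa against WT, and their summed level was 1911 to 4620 CPM in WT, 3027 to 5421 CPM in PIN, and 41.2 and 17.9 CPM in PCa 1 and 2. No smooth muscle marker was at 0. The 6 fibroblast markers summed to 521.2 to 1025 CPM in WT, 758.6 to 986.4 CPM in PIN, and 743.9 and 281.6 CPM in PCa 1 and 2, with 0 called against WT. Of the 6 luminal markers, 1 was called lower in PCa, Pbsn, a secreted prostate protein, whose level was 6552 to 23968 CPM in WT and 8.53 and 60.8 CPM in PCa 1 and 2. The leukocyte markers summed to 40.8 to 90.1 CPM in WT, 42.8 to 105.8 CPM in PIN, 334.4 CPM in PCa 1 and 27.9 CPM in PCa 2. The basal markers summed to 167.3 to 216.1 CPM in WT, 178.2 to 386.9 CPM in PIN, 604.4 CPM in PCa 1 and 27.4 CPM in PCa 2. Thus PCa 1 had the highest leukocyte and basal levels of all libraries and PCa 2 the lowest, while the members' summed levels in the 2 tumors were 1030 and 1236 CPM. The endothelial markers summed to 15.0 to 95.6 CPM in WT, 79.2 to 104.4 CPM in PIN, and 113.9 and 149.9 CPM in PCa 1 and 2. All 5 had a higher mean in PCa than in WT, and 0 were called. In 1 of the 5, both PCa libraries lay above every WT library, against 17.7% of all genes tested. Seminal vesicle genes summed to 15660 CPM in WT 1, 0.634 and 0.769 CPM in WT 2 and WT 3, 43.95 to 88.7 CPM in PIN, and 3840 and 882.6 CPM in PCa 1 and 2. The part of these differences in the rise of the replication genes was not tested.

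Of the 9 licensing genes, 7 were called, Mcm2 to Mcm7 and Gmnn, against 4.35% of all genes. In all 9 both PCa libraries lay above every WT and PIN library, which held for 13.4% of all genes. Mcm5 (chr8:77633427-77652338 on mm9), a subunit of the helicase ring, was at 4.84, 3.08 and 7.39 CPM in WT 1, 2 and 3, 6.98, 6.13 and 9.61 CPM in PIN 1, 2 and 3, and 27.2 and 35.7 CPM in PCa 1 and 2. The lowest PCa library of Mcm5 was thus far above the highest of the other 6, and the log2 fold change from WT was 2.62 ± 0.41 (SE, adjusted p = 0.0129). Mcm3 (chr1:20793055-20810359), another ring subunit, was at 4.89, 1.99 and 7.17 CPM in WT, 6.91, 5.89 and 8.25 CPM in PIN, and 27.9 and 32.5 CPM in PCa. Its log2 fold change was 2.68 ± 0.49 (adjusted p = 0.021).

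Mcm6 (chr1:130228168-130256233) was at 13.7, 12.5 and 22.9 CPM in WT, 18.1, 22.4 and 20.3 CPM in PIN, and 70.9 and 71.2 CPM in PCa. The PIN values lay within the range of WT, and the 2 tumors were nearly level, with a log2 fold change of 2.12 ± 0.29 (adjusted p = 0.00971). Mcm7 (chr5:138605811-138613650), the host of Mir25 and Mir93, had the smallest standard error of the ring genes and was at 12.1, 11.3 and 14.7 CPM in WT, 16.3, 15.3 and 15.7 CPM in PIN, and 38.5 and 42.0 CPM in PCa. All 3 PIN libraries of Mcm7 lay just above all 3 WT libraries, and the log2 fold change in PCa against WT was 1.66 ± 0.21 (adjusted p = 0.00816). Exons of Ap4m1 on the opposite strand cover 7.25% of its exon bases, and whether the counting used strand is not given in the sources used here.

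Mcm2 and Mcm4 rose with log2 fold changes of 1.68 ± 0.39 (adjusted p = 0.0404) and 1.96 ± 0.33 (adjusted p = 0.0159). Mcm2 was at 31.3 CPM in PCa 1 and 48.4 CPM in PCa 2, against 6.98 to 16.6 CPM in WT. Gmnn, the inhibitor of licensing, was at 1.95 to 4.06 CPM in WT, 3.13 to 5.76 CPM in PIN, and 11.04 and 10.2 CPM in PCa, a log2 fold change of 1.78 ± 0.43 (adjusted p = 0.0449). Gmnn did not pass when any of the 8 libraries was left out. The loading factors Cdc6 and Cdt1 had log2 fold changes of 1.72 ± 0.48 (adjusted p = 0.0655) and 1.54 ± 0.45 (adjusted p = 0.073) and did not pass. Cdc6 was at 1.68 to 4.03 CPM in WT and at 8.3 and 9.39 CPM in PCa. Cdt1 was at 2.04 to 4.43 CPM in WT and at 8.3 and 11.7 CPM in PCa. In both genes the PCa libraries lay above every WT library, as in 17.7% of all genes tested.

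Per length, the levels of the 6 ring subunits lay closer together in the tumors. As RPKM, TMM-scaled CPM per kilobase of exon, the ratio of the highest to the lowest of the 6 group means was 2.77 in WT, 2.81 in PIN and 1.81 in PCa. In PCa the highest was Mcm6, at 16.3 RPKM, and the lowest was Mcm5, at 8.99 RPKM. In WT the highest was Mcm4, at 4.04 RPKM, and the lowest was Mcm5, at 1.46 RPKM. Over single libraries this ratio ran from 1.9 to 4.28, and it was not tested between groups.

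**Figure D3:**
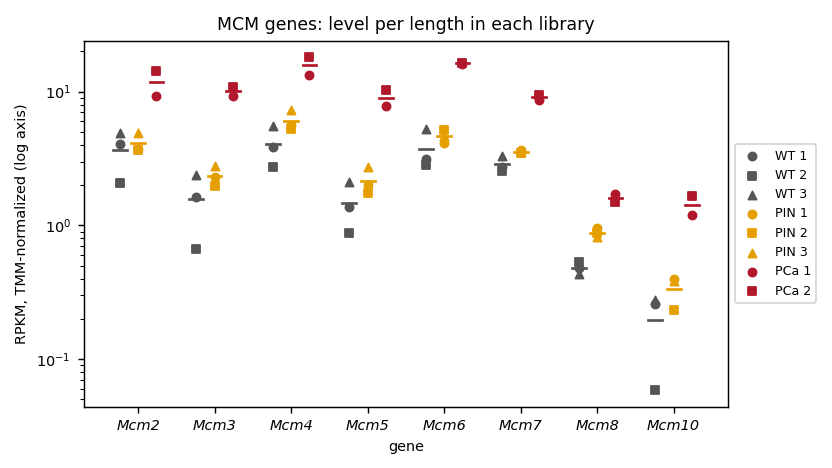
TMM-normalized RPKM (log axis) of the MCM genes in each library, with bars at the group means. The ring genes Mcm2 to Mcm7 lie at means of 8.99 to 16.3 RPKM in PCa and of 1.46 to 4.04 RPKM in WT, and Mcm8 and Mcm10 lie below them in every group.

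Among the genes of helicase activation and its relatives, Mcm10 and Mcm8 rose and no GINS subunit was called. Mcm10, which helps the helicase unwind, was at 1.98, 0.453 and 2.12 CPM in WT, 3.06, 1.79 and 2.94 CPM in PIN, and 9.17 and 12.8 CPM in PCa. This was the highest log2 fold change of the members, 2.85 ± 0.65 (adjusted p = 0.0377), from a low level in WT 2, where the gene had 10 counts. Mcm8, a relative of the ring subunits that is known for its part in recombination repair, was at 1.78, 1.99 and 1.61 CPM in WT, 3.56, 3.24 and 3.05 CPM in PIN, and 6.4 and 5.55 CPM in PCa. Every PIN library lay above every WT library, as in 6.48% of all genes tested, and both PCa libraries above every PIN library, as in 21.1%. The log2 fold change of Mcm8 was 1.73 ± 0.36 in PCa against WT (adjusted p = 0.0289). It was 0.86 ± 0.36 in PCa against PIN (adjusted p = 0.201), and the difference between PIN and WT was not called.

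The GINS subunits had smaller changes, with log2 fold changes of 0.88 ± 0.37 for Gins1, 0.65 ± 0.36 for Gins2, 1.12 ± 0.43 for Gins3 and 0.55 ± 0.23 for Gins4, and adjusted p-values from 0.143 to 0.287. Gins2 was at 12.8 CPM in PCa 1 and 6.75 CPM in PCa 2, the second of which lay within the WT range of 5.44 to 7.02 CPM. Exons of Gse1 on the opposite strand cover 67.3% of the exon bases of Gins2, so its reads are uncertain if strand was not used. In the other 3 GINS genes both PCa libraries lay above every WT library, as in 17.7% of all genes tested.

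Within the clamp and its loader, the small RFC subunits Rfc3, Rfc4 and Rfc5 rose, and the large subunit Rfc1 had a log2 fold change near 0. Rfc4 (chr16:23114016-23127810) was at 3.51, 3.35 and 4.32 CPM in WT, 6.05, 5.68 and 5.88 CPM in PIN, and 13.7 and 14.6 CPM in PCa. As in Mcm7, Mcm8, Pola1, Pole2, Prim1 and Prim2, the groups stood in order without overlap. Every PIN library lay above every WT library in 6.48% of all genes tested. The log2 fold change of Rfc4 from WT to PCa was 1.92 ± 0.29 (adjusted p = 0.0111), and its difference between PIN and WT was not called. Rfc5 and Rfc3 had log2 fold changes of 1.73 ± 0.32 (adjusted p = 0.0228) and 1.63 ± 0.34 (adjusted p = 0.0296). Exons of Eif4a2 and Wsb2 on the opposite strand cover 12.6% of Rfc4 and 10.7% of Rfc5.

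Rfc1 was at 49.98, 62.0 and 80.0 CPM in WT, 72.1, 72.4 and 79.0 CPM in PIN, and 63.5 and 70.2 CPM in PCa. The PCa values of Rfc1 lay inside the WT range and below every PIN library, with a log2 fold change of 0.06 ± 0.23 from WT (adjusted p = 0.89) that turned to -0.09 without WT 1. Rfc2 was at 19.3 to 20.9 CPM in WT and at 28.4 and 21.5 CPM in PCa (log2 fold change 0.30 ± 0.21, adjusted p = 0.396). Pcna, the clamp, was at 18.0, 34.6 and 24.96 CPM in WT, 20.9, 22.7 and 22.1 CPM in PIN, and 42.5 and 56.0 CPM in PCa. It did not pass (log2 fold change 0.93 ± 0.29, adjusted p = 0.0887), and WT 2, the lowest WT library for 25 of the 37 members, was the highest for Pcna. Without WT 2 its log2 fold change was 1.20 and it passed.

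For the polymerases and primase, 3 of 7 genes were called, against 4.35% of all genes, and both PCa libraries lay above all WT libraries in all 7, against 17.7%. Pole, the catalytic subunit of the leading-strand polymerase epsilon, was at 3.71, 1.13 and 6.15 CPM in WT, 4.61, 3.82 and 5.99 CPM in PIN, and 19.9 and 24.8 CPM in PCa. Its log2 fold change was 2.60 ± 0.61 (adjusted p = 0.0412). Pola1 (chrX:90550106-90877494), the catalytic subunit of polymerase alpha, was at 5.64, 7.34 and 8.75 CPM in WT, 10.8, 9.26 and 9.64 CPM in PIN, and 17.7 and 42.9 CPM in PCa. The 2 tumors differed 2.43-fold, the widest gap among the members, and the log2 fold change of 2.06 ± 0.39 (adjusted p = 0.0235) was 1.301 without PCa 2 and then did not pass.

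Prim1, the catalytic primase subunit, rose with a log2 fold change of 1.42 ± 0.31 (adjusted p = 0.0338), and its partner Prim2 had 1.04 ± 0.29 (adjusted p = 0.0634). Pole2, an accessory subunit of polymerase epsilon, was at 0.77 to 2.01 CPM in WT, 2.07 to 2.79 CPM in PIN, and 3.35 and 4.70 CPM in PCa (log2 fold change 1.54 ± 0.51, adjusted p = 0.0996). Pold1, the catalytic subunit of polymerase delta, and Pola2 had log2 fold changes of 0.69 ± 0.42 (adjusted p = 0.325) and 0.54 ± 0.43 (adjusted p = 0.459).

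Among the RPA subunits, Rpa1, the largest subunit, was called and was the most abundant member per length in each group, at 17.4 RPKM in WT, 21.0 RPKM in PIN and 36.2 RPKM in PCa. Rpa1 was at 87.7, 88.0 and 115.7 CPM in WT, 113.0, 124.8 and 113.6 CPM in PIN, and 169.9 and 233.9 CPM in PCa, a log2 fold change of 1.06 ± 0.22 (adjusted p = 0.0297). This value sits just above the threshold of 1, and Rpa1 was called in only 1 of the 8 fits that left out a library. Its log2 fold change was 0.99 without WT 1 or without WT 2 and 0.82 without PCa 2. Rpa2 had 1.15 ± 0.30 (adjusted p = 0.0521) with 27.3 CPM in PCa 1 and 15.7 CPM in PCa 2, and Rpa3 had 0.66 ± 0.33 (adjusted p = 0.238).

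The ligase of the lagging strand, Lig1 (chr7:13862632-13896782), was at 10.1, 7.66 and 15.7 CPM in WT, 15.98, 13.5 and 13.4 CPM in PIN, and 41.8 and 71.2 CPM in PCa. It rose with a log2 fold change of 2.34 ± 0.36 (adjusted p = 0.0124). Fen1, the flap endonuclease, was at 7.52 to 10.5 CPM in WT and at 20.9 and 19.0 CPM in PCa (log2 fold change 1.11 ± 0.29, adjusted p = 0.0567). The lincRNA Gm10143 covers 78.8% of the exon bases of Fen1 on the opposite strand.

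Of the 4 nucleotide supply genes, 3 were called, against 4.35% of all genes. Rrm2 (chr12:25393106-25399011), the S-phase subunit of ribonucleotide reductase, had the lowest adjusted p of the members. Its level was 8.95, 10.0 and 9.3 CPM in WT, 9.36, 10.5 and 13.3 CPM in PIN, and 47.5 and 47.4 CPM in PCa. The 2 tumors were level with each other and 5.04-fold above WT, with a log2 fold change of 2.33 ± 0.23 (adjusted p = 0.00578). Rrm1, its partner subunit, rose less, from 27.5, 27.6 and 42.6 CPM in WT to 67.8 and 95.9 CPM in PCa (log2 fold change 1.33 ± 0.27, adjusted p = 0.0278). As RPKM, Rrm1 and Rrm2 stood at 8.15 and 3.40 in WT and at 20.5 and 17.1 in PCa. Tyms, which makes thymidylate, was at 6.13, 5.44 and 6.73 CPM in WT, 8.75, 6.37 and 9.34 CPM in PIN, and 20.2 and 21.7 CPM in PCa, a log2 fold change of 1.78 ± 0.28 (adjusted p = 0.0129). Tk1, which salvages thymidine, was at 1.5 to 3.37 CPM in WT and at 9.59 and 7.65 CPM in PCa (log2 fold change 1.66 ± 0.47, adjusted p = 0.0689).

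**Figure D4:**
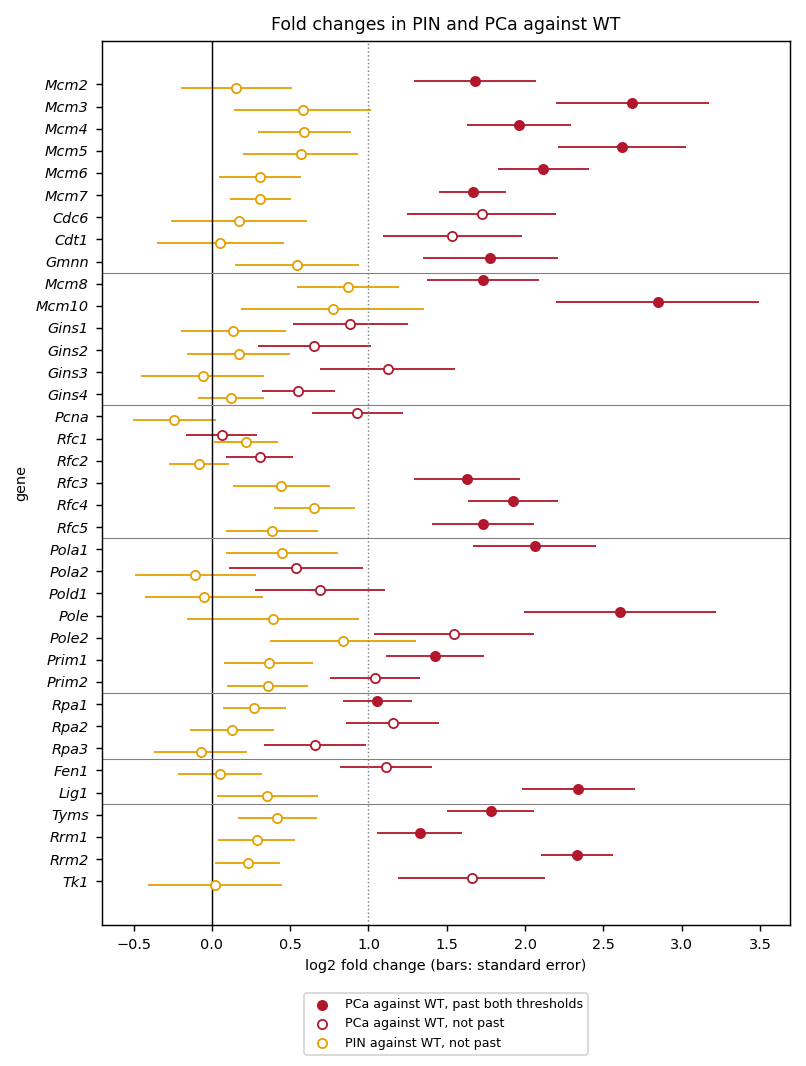
Log2 fold changes of the 37 members in PCa against WT (red) and PIN against WT (orange), with bars for the standard error and filled circles for genes past both thresholds. In PCa, 20 circles are filled and the values run from 0.06 to 2.85, while in PIN none is filled and the values run from -0.24 to 0.87.

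The 2 tumors had similar levels of most members. They lay within 1.5 times of each other in 31 of 37 members, or 83.8%, against 48.1% of all genes tested, and 25 members were higher in PCa 2, as were 49.6% of all genes tested. The 6 outside that range were Pola1, Lig1, Mcm2 and Prim1, higher in PCa 2, and Gins2 and Rpa2, higher in PCa 1.

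PIN was compared with WT to ask whether replication genes were already raised before carcinoma. In this comparison 0 of 37 members were called, as were 0% of all genes tested, and 2 members had an unadjusted p under 0.05, Mcm8 and Rfc4, both higher, against 1.92% of all genes. DESeq2 also called 0 members, while it called 0.25% of all genes tested higher. The members' median log2 fold change was 0.29, against -0.02 over all genes tested, and 31 of 37 had a higher mean in PIN, against 48% of all genes. All 3 PIN libraries lay above all 3 WT libraries in 7 members, Mcm7, Mcm8, Rfc4, Pola1, Pole2, Prim1 and Prim2, against 6.48% of all genes. The largest differences were 0.87 ± 0.33 for Mcm8, 0.84 ± 0.47 for Pole2 and 0.77 ± 0.58 for Mcm10, each with an adjusted p of 1, and Pcna was lowest, at -0.24 ± 0.26.

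The difference between PIN and WT varied with the control libraries. Without WT 1 the members' median was 0.22 and 33 of 37 were higher in PIN, and without WT 2 it was 0.18 and 27 were higher. Without WT 3 the median was 0.47 and 34 were higher. The setting with WT 3 as the only control was chosen after seeing that WT 2 was the lowest WT library for most members, and WT 3 had the highest summed member level in WT, so this choice by itself makes the difference smaller. With it, 19 of 37 members were higher in PIN and the median was 0.02, which was also the median over all genes tested. With that control the members' median in PCa was 1.19, 36 of 37 members were higher, and 0 were called, when 0 genes of the whole table were called higher. WT 2 was the lowest WT library for 25 members, WT 1 for 11 and WT 3 for 1, against 43.8%, 32.8% and 23.4% of all genes tested. In WT 2 the endothelial markers summed to 15.0 CPM, against 59.1 to 149.9 CPM in the other 7 libraries. WT 2 also had the highest luminal sum of all libraries, 34020 CPM, and the lowest smooth muscle sum of the WT and PIN libraries, 1911 CPM. The part of these differences in its member levels was not tested.

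PCa was compared with PIN, the lesion that precedes it in these mice. Of the 37 members, 36 had a higher mean in PCa, 8 were called higher, against 2.55% of all genes tested, and 0 were called lower, against 3.17%. The median log2 fold change was 1.19, against 0.07 over all genes. Both PCa libraries lay above every PIN library in 35 members, against 21.1% of all genes, and above every PIN and WT library in 35, against 13.4%. The 8 called were Mcm3, Mcm5, Mcm6, Mcm7, Rfc4, Lig1, Tyms and Rrm2, all of which were also called against WT, and 12 others were called only against WT. These comparisons share the PCa libraries. A further 14 members had an adjusted p between 0.05 and 0.1.

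Rrm2 again had the lowest adjusted p, with a log2 fold change of 2.104 ± 0.23 from PIN (adjusted p = 0.00761), and was the only member called whichever library was left out. Mcm7 (1.35 ± 0.21, adjusted p = 0.0181) and Mcm6 (1.81 ± 0.29, adjusted p = 0.0188) followed. Lig1 had 1.99 ± 0.36 (adjusted p = 0.0273), Mcm5 2.05 ± 0.40 (adjusted p = 0.0331) and Tyms 1.36 ± 0.28 (adjusted p = 0.0348). Rfc4 (1.27 ± 0.28, adjusted p = 0.0452) and Mcm3 (2.104 ± 0.48, adjusted p = 0.0481) were close to the threshold. Pole had the highest log2 fold change, 2.22 ± 0.61, and did not pass (adjusted p = 0.0761). Rfc1 was the only member with a lower mean in PCa, at -0.16 ± 0.23 (adjusted p = 0.742), and it was 0.19 with no normalization factor.

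Other genes of replication, listed by function outside the 37, were measured for comparison. Of 40 symbols listed, 38 were tested, and 11 were called higher in PCa against WT, where 4.35% of all genes were. Of these 38, 0 were called lower, and the median log2 fold change was 0.90. The 3 highest were Clspn, a checkpoint mediator at the fork, at 2.95 ± 0.69 (adjusted p = 0.0415), Dscc1, part of an alternative clamp loader, at 2.79 ± 0.66 (adjusted p = 0.0425), and the origin recognition subunit Orc1, at 2.41 ± 0.72 (adjusted p = 0.0788). The other 9 called were Cdc45, Orc6, Dbf4, Wdhd1, Mtbp, Timeless, Tipin, Atad5 and Chaf1b. The 3 lowest did not pass and were Pold2 at -1.01 ± 0.31 (adjusted p = 0.084), Pold4 at -0.54 ± 0.30 and Orc3 at -0.31 ± 0.27. Pold2 and Pold4 are accessory subunits of polymerase delta, and Pold2 was at 23.4, 25.2 and 17.9 CPM in WT and at 13.3 and 8.74 CPM in PCa.

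In the wider supply of nucleotides, 3 of 31 tested genes were called higher, against 4.35% of all genes, 0 were called lower, and the median log2 fold change was 0.24. Prps2, which makes the ribose phosphate donor, had 2.08 ± 0.40 (adjusted p = 0.0239), and Dut, which clears dUTP and is named only because it passed, was also called. Dctd had 1.78 ± 0.48 (adjusted p = 0.0598) and did not pass. Impdh1 and Guk1, of guanine nucleotide synthesis, were among the lowest, at -1.31 ± 0.36 (adjusted p = 0.0639) and -1.13 ± 0.30 (adjusted p = 0.0549).

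Enzymes of DNA synthesis and nucleotide supply that are known to serve outside S phase were listed as well. Of 12 such genes, 1 was called, Dck, the deoxycytidine kinase of nucleotide salvage (1.60 ± 0.38, adjusted p = 0.0417), against 4.35% of all genes tested, and the median log2 fold change was 0.18. Dck was called in 2 of the 8 fits that left out a library. Rrm2b, the reductase subunit of resting cells, was at 30.9, 40.1 and 43.1 CPM in WT, 44.5, 39.0 and 34.5 CPM in PIN, and 35.7 and 29.4 CPM in PCa (-0.23 ± 0.23, adjusted p = 0.571). Tk2, the mitochondrial thymidine kinase, had -0.24 ± 0.38 (adjusted p = 0.719), with 37.7 CPM in PCa 1 and 17.9 CPM in PCa 2. Thus Rrm2 and Rrm2b, which serve the same enzyme, had log2 fold changes of 2.33 and -0.23. The other 9, Dguok, Samhd1, Polb, Polg, Polh, Polk, Poli, Rev1 and Rev3l, did not pass and lay between -0.25 for Polb and 0.92 for Polk. These lists are compared by their counts and medians alone, and the difference between them was not tested.

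**Figure D5:**
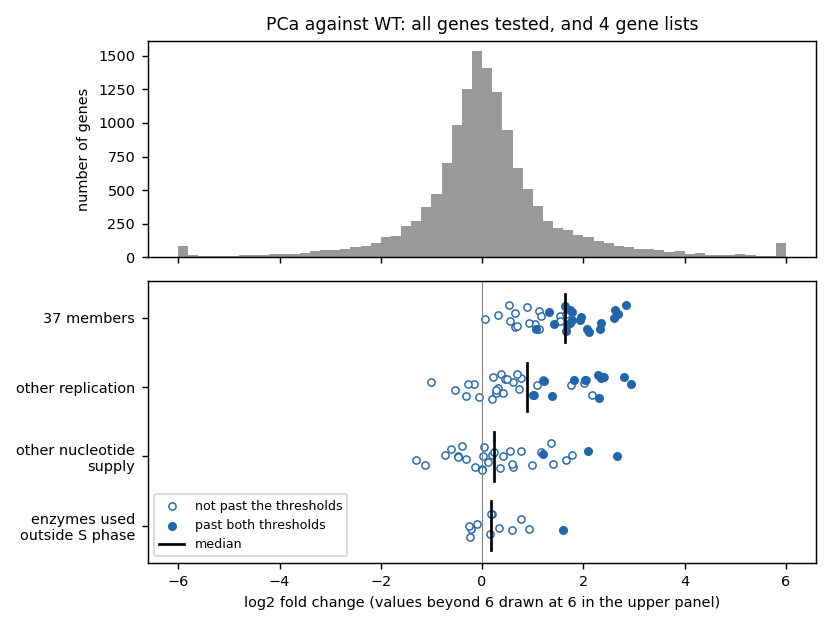
Log2 fold changes in PCa against WT for all 14034 genes tested (histogram) and for 4 gene lists (points, filled where past both thresholds; bars mark medians). The medians are 1.63 for the 37 members, 0.90 for other replication genes, 0.24 for other nucleotide supply genes and 0.18 for enzymes used outside S phase.

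The promoter words shown above were found both in members that were called and in members that were not. Among the members with a window, 8 of 13 with an E2F word and 9 of 16 without were called in PCa against WT, with median log2 fold changes of 1.72 and 1.38. For CCAAT the counts were 13 of 18 with the word and 4 of 11 without, with medians of 1.65 and 1.66. Rrm2 and Tyms, both called, held no E2F word of these letters in the window searched, and Gins3, Cdc6 and Cdt1, which did not pass, held 1 each.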

How the data were processed

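Ribosomal RNA was removed from RNA of 8 mouse prostate tissues and paired-end libraries were sequenced. The authors trimmed reads with cutadapt 1.9.1, aligned them to mm9 with HISAT2 2.1.0 and counted them per gene with HTSeq 0.6.1, per the labels and the study's methods. The deposited values are raw counts. The table's other deposited column, the summed exon length of each gene, was used only for RPKM.

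Counts were tested with edgeR 4.0.16 (R 4.3.3; quasi-likelihood F-test, legacy method). The study's methods name this test but apply it to TPM values, whereas raw counts were used here. Genes above 1 CPM in at least 2 samples were kept. All 8 libraries entered 1 model of 3 groups with TMM normalization and 5 residual degrees of freedom. Calls needed an absolute log2 fold change above 1 and a Benjamini-Hochberg adjusted p under 0.05 over all genes tested. Standard errors were computed as the log2 fold change over the root of F. Alternatives used DESeq2 1.42.0 and limma 3.58.1. Steps were tested on simulated counts.

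All 37 members were named, with the 3 highest and 3 lowest of 2 further lists and every enzyme of a list used outside S phase, except 2 genes that are not reported here. Members and lists were chosen with earlier results of these data known. Ticrr was not matched by symbol, and Nme2 did not pass the filter. And1 was not matched either, but it is another name of Wdhd1, which was tested. Promoter sequences are from RefSeq (GRCm38.p6).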

Additional observations from a re-analysis of the deposited data

How the results depend on the processing

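Members called in PCa against WT numbered 20, with 4.35% of all genes called higher. Upper-quartile normalization, limma-trend, edgeR's newer method and filterByExpr gave 18 to 21 (3.88% to 5.21% of all genes), no filter on low counts 16 (2.5%) and DESeq2 27 (9.36%). It was 31 (14.3%) with no normalization factor, 1 (0.491%) in a fit of only the 2 groups, 9 (1.44%) with the replicate block and 0 (0%) with WT 3 as the only control, a setting chosen after seeing the data. Leaving out 1 library at a time gave 8 (without WT 1, 2.22%) to 19 (without PCa 1, 7.49%). The median log2 fold change, 1.63, was 2.13 with no normalization factor, 1.19 with WT 3 only and 1.35 to 1.78 with 1 library left out. In PIN against WT the count was 0 under each alternative, and the median, 0.29, was 0.02 with WT 3 only and 0.18 to 0.47 with 1 library left out.

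In PCa against PIN the count of 8, with 2.55% of all genes called higher, became 19 (5.6%) with no normalization factor, 25 (6.87%) with DESeq2, 5 (1.24%) with no filter and 1 (0.2%) with the replicate block. With 1 library left out it ran from 1 (without PIN 1, PIN 2 or PIN 3, 0.05% to 0.265%) to 16 (without WT 2, 3.43%). The median, 1.19, became 1.54 with no normalization factor and 1.15 to 1.33 with 1 library left out. Whether the replicate numbers pair animals is not given in the labels. Deviations from the group means correlated at 0.099 on average for the same number (-0.0562 to 0.284). For different numbers the average was -0.0504 (-0.284 to 0.164). These values cannot decide it, because deviations within a group depend on each other.

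With another normalization, test, filter or choice of libraries, leaving aside WT 3 as the only control, 1 member changed sign in PCa against WT, 2 in PCa against PIN and 13 in PIN against WT, where the differences were small. The log2 fold changes given above that changed sign are as follows. In PCa against WT, Rfc1 was -0.258 with WT 3 only and -0.085 (without WT 1) to 0.256 with 1 library left out. With no normalization factor Pold4 was 0.018, Orc3 0.22, Rrm2b 0.33, Tk2 0.30, Polb 0.29 and Poli 0.43. With 1 library left out, Tk2 ran from -0.872 (without PCa 1) to 0.211 (without PCa 2), Polk from -0.004 (without PCa 2) to 1.498 (without PCa 1), Rev1 from -0.59 (without PCa 2) to 0.916 (without PCa 1), Polb from -1.164 (without PCa 2) to 0.318 (without PCa 1), with 0.107 without WT 2, and Poli from -0.269 (without WT 2) to 0.065 (without WT 3). With WT 3 only, Polb was 0.125 and Dguok -0.037, and with the replicate block Poli was 0.027. Pcna in PIN against WT ran from -0.441 (without WT 1) to 0.027 (without WT 2), and Rfc1 in PCa against PIN was 0.19 with no normalization factor. The causes were not tested. Member counts per library ran from 10 up, with a median of 249. The spread between libraries, with a median coefficient of variation of 0.334, thus limits most members more than counting does.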

Other observations

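Of the other promoter words searched, the cell cycle homology region (TTTGAA or TTCGAA, on both strands) was in the windows of 5 of 29 members, or 17.2%, against 16.4% of tested genes. The GC box GGGCGG was in 21 of 29, or 72.4%, against 67.6%.

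Single PIN libraries differed in how many members exceeded every WT library. PIN 3 did so in 22 members, PIN 1 in 13 and PIN 2 in 12, against 18.8%, 21.2% and 21.7% of all genes tested. PIN 3 also had the highest summed member level of the PIN libraries, at 565.6 CPM, against 552.3 CPM in WT 3.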
